A study of Homo sapiens with 16 samples.

Results

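The H19, IGF2, KCNQ1 and CDKN1C genes lie in one stretch near one end of human chromosome 11, with other genes among them, and their contacts were read from Hi-C maps of K562 cells. The genes were taken as the 20 kb bins that overlap them in the hg19 build. H19 lay in 1 bin (chr11:2000001-2020000), IGF2 in 2 bins (chr11:2140001-2180000), KCNQ1 in 21 bins (chr11:2460001-2880000) and CDKN1C in 1 bin (chr11:2900001-2920000). Of these 25 bins, 23 carried signal in all 8 libraries, out of 137198 such bins among the 151825 bins of chromosomes 1 to 22 and X. The unusable bins were the first 2 of KCNQ1, which could not be tested. Contacts were followed in a window of chromosome 11 from 1 to 4 Mb, where 122 of 150 bins were usable.

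K562 is an established line from a chronic myeloid leukaemia, with a rearranged genome. Its cells were fixed with formaldehyde, the chromatin was cut with the restriction enzyme HindIII inside nuclei, and cut ends that lay close together were ligated and sequenced as pairs. The 4 groups differed only in the length of the HindIII digestion, which was 0.25, 1, 3 or 12 h, with 2 replicates each. The design text states that digestion time was varied so that the most accessible boundaries would be caught at the shortest times. No group carried another treatment or an edited gene. The labels do not say that replicates came from separate cultures, so p-values measure the spread between these libraries, which may be technical. Each time and replicate has a first run, deposited in 50 kb bins, and a deeper second run, deposited in 20 kb bins, on which all values below rest unless the first run is named.

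Imprinted genes are expressed mainly from the copy inherited from one parent. H19 makes a long non-coding RNA from the maternal copy and IGF2, a growth factor of the insulin family, is made mainly from the paternal copy; both are governed by a control region next to H19 that binds the insulator protein CTCF when it is unmethylated, and they share enhancers on the far side of H19. KCNQ1 encodes a potassium channel subunit, and a second control region inside it starts the antisense RNA KCNQ1OT1, whose transcription from the paternal copy accompanies the silencing of neighbours such as CDKN1C, an inhibitor of the cell cycle. The maps do not separate maternal from paternal copies, so every value is a sum over all copies in the cells. How many copies of each K562 carries here was not examined.

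The second run held 62777251 to 176412222 contacts per library, with the shallowest at 0.25 h and the deepest at 12 h, and the first run 8918994 to 20237350. As a check of the cell line, the most frequent contact between chromosomes 9 and 22 at 1 Mb resolution, from 133 to 134 Mb against 23 to 24 Mb, was the same in all 8 libraries. It held 5194 to 26287 contacts where the median pair held 1 to 3. This is where the BCR and ABL1 genes, fused in K562, are joined. The share of contacts that stayed in their own bin fell with digestion over the whole genome, from a median of 7.32% and 7.81% in the 0.25 h libraries to 4.27% and 4.2% at 12 h.

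Of the 4 genes, H19 was the one matched in the RefSeq promoter table. Its promoter is shown because H19 had the fewest contacts of the genes that fit into 1 bin, and HindIII cuts at AAGCTT. The 300 bases lie at GRCh38.p14 chr11:2001217-2001516 on the minus strand, a build different from that of the maps, and CpG pairs, where DNA can be methylated, are in capitals.
H19: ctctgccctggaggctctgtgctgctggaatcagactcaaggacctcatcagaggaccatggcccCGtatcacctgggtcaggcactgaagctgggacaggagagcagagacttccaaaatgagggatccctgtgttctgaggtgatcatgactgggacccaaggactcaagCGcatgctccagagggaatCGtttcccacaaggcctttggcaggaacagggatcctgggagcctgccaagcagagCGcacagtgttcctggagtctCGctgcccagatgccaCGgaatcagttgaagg
It held 6 CpG pairs, and 33.7% of all promoters in the table held fewer. No AAGCTT, which reads the same on both strands, was found in these letters, and 5.84% of the 35116 promoters held one. Positions were not converted between the builds, so these bases may lie outside the 20 kb bin taken for H19. They do not tell how many HindIII sites that bin holds.

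The 4 genes differed widely in how many contacts they entered. H19 made 116 and 63 contacts with other bins at 0.25 h, 139 and 82 at 1 h, 169 and 130 at 3 h, then 348 and 338 at 12 h, with replicate 1 first. That was 12.0% of the median usable bin of chromosome 11 on average. The 12 h libraries stood above all others, also after scaling for depth: scaled to 1000000 contact ends per library (CPM), H19 was at 0.654 ± 0.0197 at 0.25 h, 0.679 ± 0.0439 at 1 h, 0.721 ± 0.0134 at 3 h, before 1.18 ± 0.0901 at 12 h (SD, n = 2 each). The groups at 3 and 12 h did not overlap.

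IGF2 was split unequally between its bins. The bin at 2.14 to 2.16 Mb had 139 and 85 contacts at 0.25 h, 180 and 118 at 1 h, 271 and 222 at 3 h, then 528 and 474 at 12 h. The next, at 2.16 to 2.18 Mb, had 500 and 301, 589 and 403, 796 and 600, and 1347 and 1187 in the same order. On average the first reached 17.4% and the second 51.3% of the chromosome's median. In CPM the first stood at 0.833 ± 0.0939, 0.925 ± 0.00847, 1.19 ± 0.0747 and 1.72 ± 0.0354 from the shortest to the longest digestion. The second went from 2.96 ± 0.298 to 4.35 ± 0.0322, with no overlap between 0.25 and 12 h in either.

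CDKN1C made 363 and 151 contacts at 0.25 h, 355 and 203 at 1 h, 393 and 305 at 3 h, then 636 and 525 at 12 h, which was 26.8% of the chromosome's median. Its CPM were 1.8 ± 0.286 at 0.25 h and 1.99 ± 0.0770 at 12 h, and here the groups overlapped. KCNQ1, which is much longer, ranged from 9.96% of the median in the bin at 2.82 to 2.84 Mb to 108% in its first usable bin at 2.5 to 2.52 Mb. Outside KCNQ1, ordered by level, H19 stood lowest, then the first IGF2 bin, then CDKN1C and then the second IGF2 bin. Their ranges over libraries, as a percentage of the median, overlapped between H19 (9.75 to 18) and the first IGF2 bin (11.7 to 25.2), and between that bin and CDKN1C (24.0 to 30.5), but not between CDKN1C and the second IGF2 bin (41.9 to 63.0).

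**Figure D1:**
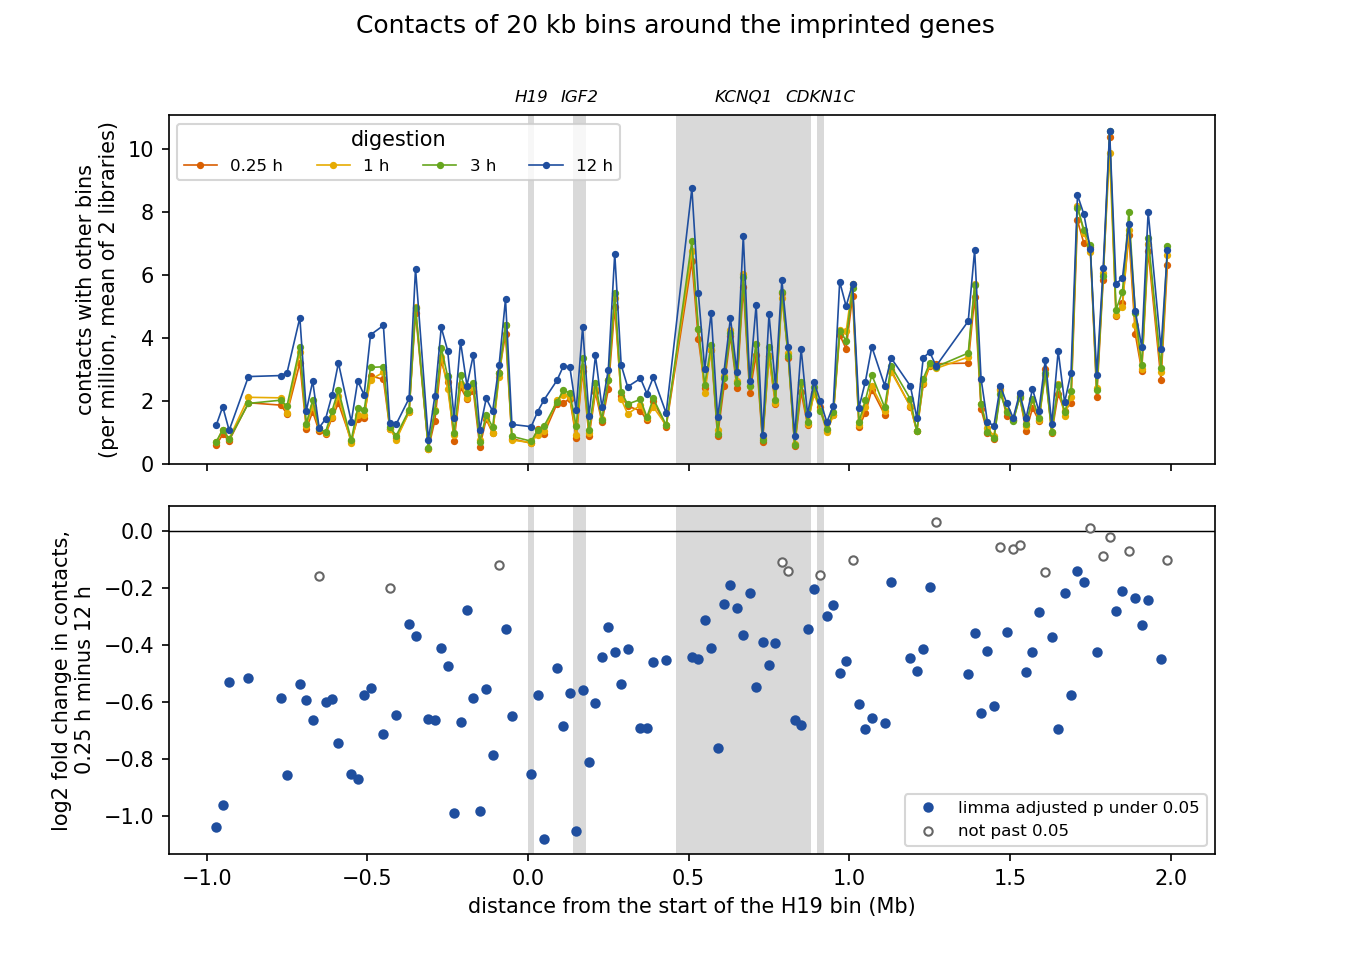
Contacts of 20 kb bins, member bins included, with all other bins, in CPM by digestion time. H19 and both IGF2 bins sat higher at 12 h than at the shorter digestions, while the CDKN1C libraries of 0.25 and 12 h overlapped.

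The first comparison asked which bins entered fewer contacts after the shortest than after the longest digestion. Of the 23 usable member bins, 20 were lower at 0.25 h and 0 were higher (limma across all bins, Benjamini-Hochberg adjusted p under 0.05), where 35% of all 137198 bins were lower and 20.9% higher. H19, both IGF2 bins and 17 of 19 KCNQ1 bins were among them, and CDKN1C was not. Of the 122 usable bins of the window, members included, 105 were lower and 0 higher. The median log2 fold change was -0.40 over the members, -0.45 over the window and -0.05 over all bins. With median-of-ratios scaling in place of totals, all bins split into 38304 higher and 38247 lower (27.9% each), in place of 28639 and 47981, and all 4 genes kept their direction.

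Among the members the first IGF2 bin and H19 changed most. The IGF2 bin was lower at 0.25 than at 12 h by a log2 fold change of -1.05 (SE 0.11; limma, Benjamini-Hochberg adjusted p = 9.53e-08), H19 by -0.85 (SE 0.12; adjusted p = 5.03e-06) and the second IGF2 bin by -0.56 (SE 0.07; adjusted p = 8.76e-07). Within KCNQ1 the values ran from -0.76 in the bin at 2.58 to 2.60 Mb to -0.11 in the bin at 2.78 to 2.80 Mb. The first of these had 151 and 87 contacts at 0.25 h, 198 and 147 at 1 h, 228 and 171 at 3 h, then 465 and 400 at 12 h. The second had 935 and 543, 1001 and 691, 1258 and 1011, then 1806 and 1600, and did not pass the test (limma, adjusted p = 0.112), although it did so without replicate 2 of 0.25 h (-0.19). Here and wherever else a library was left out, its group held 1 library, which was taken to vary like the other times. The other KCNQ1 bin that did not pass lay next to it at 2.80 to 2.82 Mb (-0.14, adjusted p = 0.087).

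The ends of KCNQ1 both changed. The first usable bin had 1190 and 604 contacts at 0.25 h, 1284 and 888 at 1 h, 1650 and 1291 at 3 h, then 2670 and 2429 at 12 h, a log2 fold change of -0.44 between 0.25 and 12 h (limma, adjusted p = 1.63e-07). The last, at 2.86 to 2.88 Mb, had 222 and 120, 252 and 160, 299 and 246, then 497 and 424, with a change of -0.34 (adjusted p = 0.0042). CDKN1C, in contrast, gave -0.16 (SE 0.10; limma, adjusted p = 0.188). That value rested on the 0.25 h libraries: it was -0.32 and passed the test without replicate 1 of 0.25 h, and 0.01 without replicate 2.

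The level of a bin and its change moved together over the genome, which touches these results. In the lowest of 20 classes of bins by mean contacts the median log2 fold change was -0.37. H19 and the first IGF2 bin belong to that class, and 5.99% and 1.12% of its bins had lower values. The second IGF2 bin had 3.29% of its class below it and CDKN1C 69.9%. The 19 KCNQ1 bins had from 1.24%, in the first usable bin, to 58.1% (median 35.9%), with 10 of them at 20% or more. The part of the level in these changes was not tested further.

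Most of the change of H19 lay between 3 and 12 h, and that of the first IGF2 bin was split about evenly before and after 3 h. Between 3 and 12 h, 16 of the 23 member bins were lower at 3 h and 0 higher (limma, adjusted p under 0.05; 24.2% of all bins were lower and 14.3% higher). H19 accounted for -0.71 (adjusted p = 0.000139), the first IGF2 bin for -0.53 (adjusted p = 0.000655) and the second for -0.38 (adjusted p = 0.000268). CDKN1C gave -0.24 (adjusted p = 0.0576). With the replicate number as a block CDKN1C passed (limma, adjusted p = 0.0276), and 19 of 23 were lower at 3 h (27.8% of all bins). Between 0.25 and 3 h, 1 of 23 passed, the first IGF2 bin at -0.52 (limma, adjusted p = 0.0429), where 0.325% of all bins were lower. With the replicate block the same bin passed, but 3.27% of all bins were then lower. H19 gave -0.14 without the block (limma, adjusted p = 0.571). The IGF2 call was lost when any one of the 1, 3 or 12 h libraries was left out, and 2 bins passed without replicate 2 of 0.25 h (0.806% of all bins were lower).

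Contacts that stay inside a bin join cut ends less than 20 kb apart, and uncut or re-ligated neighbours can add to them. IGF2 had many of these at short digestion. Its first bin had 57 and 69 self contacts at 0.25 h, 44 and 35 at 1 h, 48 and 47 at 3 h, then 19 and 10 at 12 h. The 12 h libraries had the fewest although they were the deepest, and the share went from 36.9% ± 11.1 to 16.3% ± 1.71 at 3 h and 2.77% ± 0.995 at 12 h (SD, n = 2), without overlap. The log2 ratio of self to other contacts was 4.34 higher at 0.25 than at 12 h (SE 0.31; limma, Benjamini-Hochberg adjusted p = 3.16e-05).

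In the second IGF2 bin the self contacts were 105 and 93 at 0.25 h, 103 and 81 at 1 h, 144 and 117 at 3 h, then 128 and 118 at 12 h. Their share fell from 20.5% ± 4.42 to 8.86% ± 0.258, a log2 difference of 1.39 (SE 0.18; limma, adjusted p = 9.65e-05). KCNQ1 was alike at its first usable bin, with 539 and 393, 560 and 430, 735 and 507, then 658 and 589 self contacts and a share that fell from 35.3% ± 5.83 to 19.6% ± 0.181 (log2 difference 1.15, adjusted p = 0.00048). The KCNQ1 bin at 2.78 to 2.80 Mb, whose contacts with other bins did not pass the test, had 330 and 297, 343 and 245, 438 and 281, then 237 and 239. Its share fell from 30.7% ± 6.56 to 12.3% ± 0.987, a difference of 1.65 (SE 0.21; limma, adjusted p = 9.2e-05).

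H19 and CDKN1C had almost no self contacts. H19 had 1 and 1 at 0.25 h, 6 and 1 at 1 h, 3 and 0 at 3 h, then 3 and 2 at 12 h, and CDKN1C had 1 and 0, 0 and 1, 2 and 2, then 2 and 2. At such counts a change was not detectable, with differences of 1.02 (limma, adjusted p = 0.255) and -0.23 (limma, adjusted p = 0.8). Leaving out each library, they ran from 0.58 to 1.46 for H19 and from -0.39 to -0.067 for CDKN1C. The last KCNQ1 bin was similar, with 2 and 0, 1 and 0, 3 and 1, and 4 and 7 (-0.89, adjusted p = 0.251; -1.61 to -0.17 leaving out each library).

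In total 15 of 23 member bins had a higher self share at 0.25 than at 12 h by limma's test, where 64.7% of all bins did, a share close to that of the members. Of the 122 usable bins of the window, members included, 59 were higher and 0 lower. Of the 15, 2 KCNQ1 bins, at 2.72 to 2.74 and 2.82 to 2.84 Mb, had 0 self contacts in every library, and passed only because the same 0.5 contacts were added at unequal depth. They are not counted as changed. Among the 15 member bins with a mean of at least 5 self contacts 13 passed (70.9% of all such bins), and 10 of 23 passed when the added count followed depth (62.4%). The count was 8 of 23 without replicate 1 of 12 h (55.7% of all bins). Between 3 and 12 h, 9 of 23 passed (56.8% of all bins), and 4 to 5 without replicate 1 of 3 h (38.3% of all bins) or without replicate 1 (41.1%) or 2 (38%) of 12 h, where the share of all bins was lower too. There, 9 of the 15 with enough self contacts passed (64%), and 7 of 23 with the added count following depth (55.3%). Between 0.25 and 3 h 1 passed, the first IGF2 bin (9.43% of all bins; log2 difference 1.57, adjusted p = 0.0442). None passed when any one 1, 3 or 12 h library was left out, and 6 passed without replicate 1 of 0.25 h (35.2%).

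**Figure D2:**
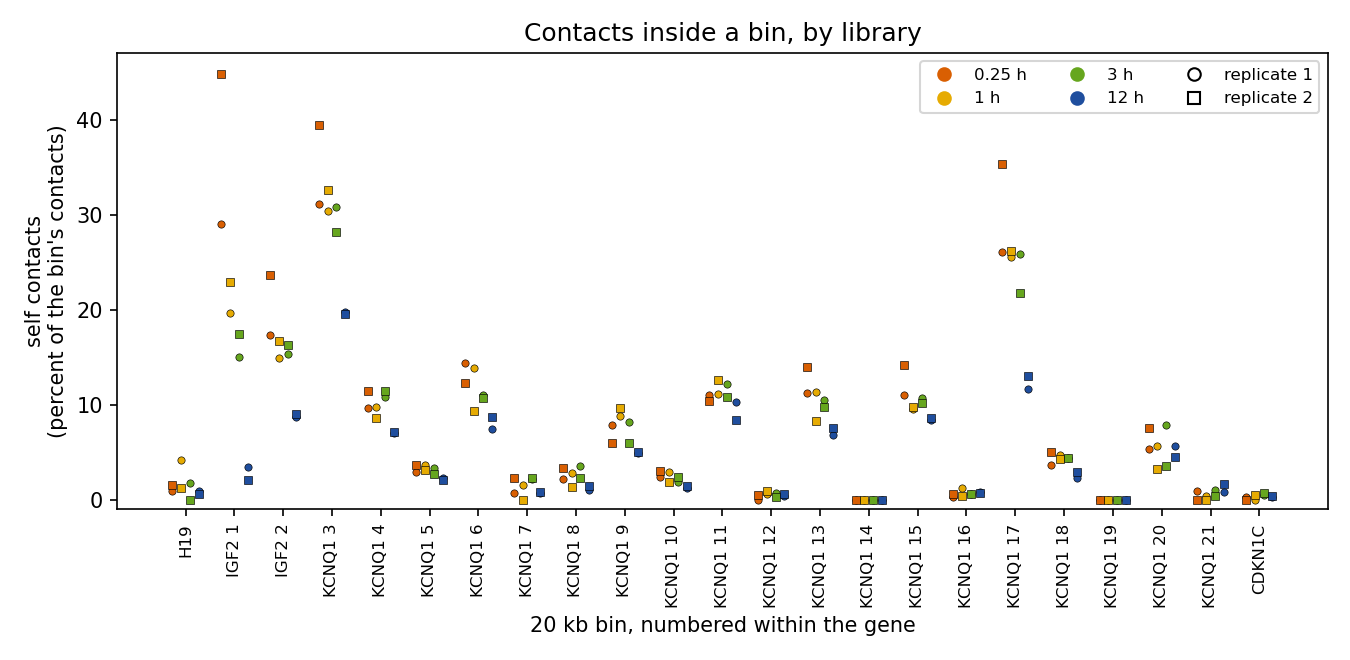
Self contacts of the member bins as a percentage of all contacts of the bin, by digestion time, for each library. Both IGF2 bins and most KCNQ1 bins rich in self contacts fell towards 12 h, and H19 and CDKN1C lay near 0 throughout. Between 0.25 and 12 h the KCNQ1 bins at 2.66 to 2.68 Mb (limma, adjusted p = 0.183) and 2.84 to 2.86 Mb (limma, adjusted p = 0.41) did not pass.

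The contacts of the 4 genes also differed in where they went. H19 sent 31.4% ± 2.05 of its contacts to other chromosomes at 0.25 h, 33.8% ± 4.95 at 1 h, 39.9% ± 1.28 at 3 h, then 30.2% ± 4.77 at 12 h, against 10.7 to 12.7% over all bins. The other genes also lay above all bins, with means by time of 23.3 to 25.5% for KCNQ1, 16.8 to 20.2% for IGF2 and 18.5 to 19.6% for CDKN1C. Contacts with other bins of the window were counted without self contacts. Their share was largest for CDKN1C, from 60.8% ± 0.706 at 0.25 h to 63.6% ± 4.55 at 12 h. For IGF2 this share was 44.5% ± 8.53 at 0.25 h and 58.7% ± 0.364 at 12 h. Its self contacts, which also lie inside the window, went from 24.9% ± 6.60 to 7.21% ± 0.0815. For KCNQ1 self contacts went from 14.5% ± 2.60 to 7.74% ± 0.108. When contacts between chromosomes alone were counted, 9 of 23 member bins were lower at 0.25 than at 12 h (3.7% of all bins).

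How often 2 bins met was described as observed over expected (O/E). The observed value is the authors' balanced signal and the expected one the mean of all usable pairs at the same distance. Balancing scales each bin to the same total, so it multiplies the contacts of poorly covered bins such as H19 and CDKN1C, and values without balancing are given as well. Intervals are 95% Poisson intervals on the contacts of all libraries added. They cover counting error only, and leave out the spread between libraries and the error of balancing. Whether duplicate reads were removed is not stated, so contacts may not be independent molecules.

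H19 and IGF2 met at an O/E of 1.25 (0.844 to 1.79; 30 contacts), which includes 1, and at 0.156 without balancing. H19 and KCNQ1 met at 0.691 (0.491 to 0.945; 39 contacts; 0.0826 without balancing). Between H19 and CDKN1C there was 1 contact in all libraries (O/E 0.597, 0.0151 to 3.33; 0.0569 without balancing). IGF2 met KCNQ1 at 0.730 (0.664 to 0.801; 448 contacts; 0.358 without balancing) and CDKN1C at 1.14 (0.625 to 1.92; 14 contacts; 0.323 without balancing).

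KCNQ1 and CDKN1C were the pair with the highest value, at 2.5 (2.35 to 2.66; 1031 contacts). By library the O/E was 2.83 and 2.64 at 0.25 h, 2.62 and 3.12 at 1 h, 2.69 and 2.13 at 3 h, then 2.32 and 2.13 at 12 h. All libraries were above 2. Those of 12 h lay below those of 0.25 and 1 h, and those of 3 h overlapped with every other time. Without balancing the value was 0.563, so the direction against the mean of other bins turned with the balancing. KCNQ1 met itself at 1.25 (17931 contacts; 0.505 without balancing). The bins of IGF2 met each other at 0.721 ± 0.0414 at 0.25 h and 1.27 ± 0.0191 at 12 h (245 contacts in all, 0.294 without balancing).

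**Figure D3:**
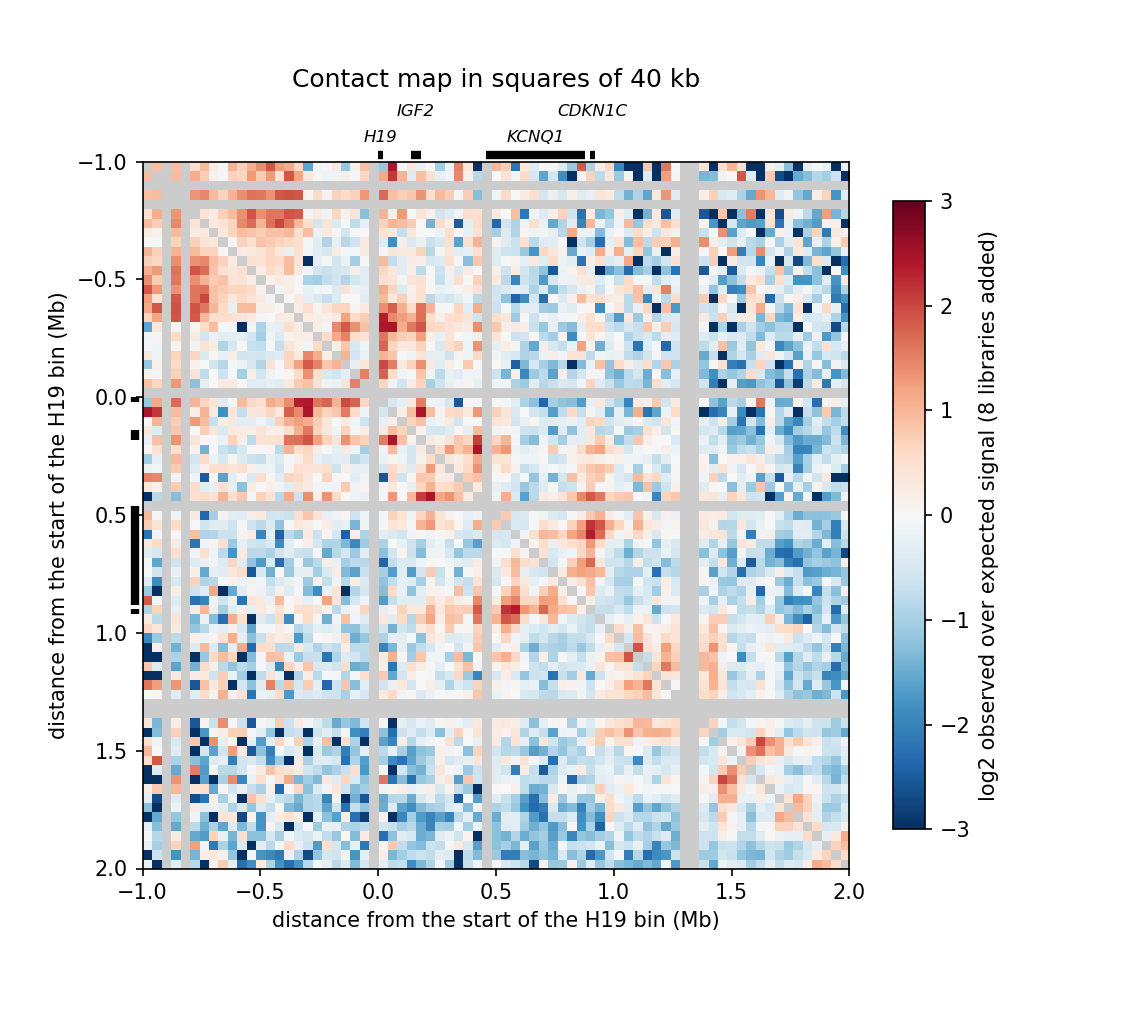
Balanced contacts over expected between bins of the window from 1 to 4 Mb of chromosome 11, all 8 libraries added, on a log2 colour scale, with the genes marked. CDKN1C against KCNQ1 at 2.54 to 2.58 Mb, and the second IGF2 bin against bins beside H19, stood above their distance.

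Within KCNQ1, the balanced O/E with CDKN1C was highest in the bins from 2.54 to 2.58 Mb. With the KCNQ1 bin at 2.54 to 2.56 Mb, 360 kb away, CDKN1C made 13 and 4 contacts at 0.25 h, 11 and 6 at 1 h, 8 and 11 at 3 h, then 15 and 14 at 12 h. The O/E was 11.6 and 9.86, 10.8 and 11.4, 6.08 and 11.3, then 6.23 and 7.44, and both 12 h libraries lay below both of 0.25 h. Over all libraries it was 8.75 (6.96 to 10.9), above 99.99% of 133294 pairs at that distance, and 1.78 without balancing. The next bin, 2.56 to 2.58 Mb, held 113 contacts at 6.73 (5.55 to 8.09; libraries 4.03 to 9.57; 2.32 without balancing). The bin after it, 2.58 to 2.60 Mb, had 26 contacts at 5.75 (libraries 0 to 9.96), but 0.506 without balancing, so its direction turned. The bin at 2.7 to 2.72 Mb held 102 at 4.04 (3.29 to 4.90; libraries 3.5 to 5.35; 1.34 without balancing).

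All 19 usable bins of KCNQ1 were above 1 with CDKN1C, from 1.47 in the last bin to 8.75, and without balancing 4 of 19 were. The values did not follow position evenly: the first usable bin, at 2.5 to 2.52 Mb, met CDKN1C at 1.58 (41 contacts; 0.982 without balancing) and the next at 2.73 (39 contacts; 0.889 without balancing). In a split chosen after the values were seen, the first 5 usable bins met CDKN1C at 5.23 (libraries 4.22 to 5.90; 301 contacts; 1.3 without balancing) and the last 5 at 1.67 (1.24 to 2.36; 292 contacts; 0.311 without balancing). The bin directly before CDKN1C, 20 kb away, met it at 0.908 (0.762 to 1.07, 137 contacts, 0.164 without balancing). High values were not limited to CDKN1C. The first 5 usable KCNQ1 bins met this neighbour at 3.36 (libraries 2.27 to 4.07, 294 contacts, 1.2 without balancing) and the last 5 at 1.16. CDKN1C met the interval between IGF2 and KCNQ1 at 2.18 (119 contacts, 0.392 without balancing). With balancing all usable bins of this interval were above 1 too, from 1.27 to 4.38 at 2.42 to 2.44 Mb (17 contacts). The RefSeq table lists genes such as INS, TH, ASCL2, CD81 and TSSC4 there. CDKN1C met the centromeric flank up to 4 Mb at 0.684 (425 contacts, 0.138 without balancing).

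For IGF2, the partners lay on the H19 side. The second bin met 2.04 to 2.06 Mb, 120 kb away, in 18 and 12 contacts at 0.25 h, 19 and 16 at 1 h, 27 and 26 at 3 h, then 62 and 58 at 12 h. The O/E was 7.25 and 11, 7.04 and 7.35, 7.20 and 7.21, then 6.69 and 6.33, with 1 library at 0.25 h above the rest and those of 12 h lowest. Over all libraries it was 7.18 (6.29 to 8.15; 238 contacts), above 99.99% of 134035 pairs at that distance, and 2.09 without balancing.

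The bin at 2.02 to 2.04 Mb, which follows the H19 bin, met the second IGF2 bin at 5.43 (4.57 to 6.4; 142 contacts; libraries 3.91 to 7.76; 1.41 without balancing). The H19 bin itself met it at 1.5 (0.952 to 2.25; 23 contacts; 0.253 without balancing). The RefSeq table lists no gene between H19 and IGF2. The first IGF2 bin met 2.04 to 2.06 Mb at 2.05 (libraries 0 to 3.9; 33 contacts; 0.249 without balancing) and H19 at 1.02 (0.41 to 2.1; 7 contacts; 0.0693 without balancing). With both bins added, the partners with the highest values were 2.04 to 2.06 Mb (4.42; 271 contacts), 1.70 to 1.72 Mb (3.55; 73 contacts; libraries 0.993 to 6.29) and 2.02 to 2.04 Mb (3.32; 161 contacts). Without balancing these were 1.1, 0.98 and 0.749. IGF2 met the side before H19 at 1.71 (1332 contacts), the interval up to H19 at 1.73 (1247 contacts), and the interval on its KCNQ1 side at 0.786 (878 contacts). Without balancing all of these were below 1, at 0.561, 0.495 and 0.246.

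H19 met the 1 to 2 Mb flank before it at 2.02 (libraries 1.69 to 2.47; 391 contacts) and the interval between it and IGF2 at 0.588 (libraries 0.202 to 1.00; 59 contacts), without overlap. Without balancing both were below 1, at 0.201 and 0.0378. The bins from 1.96 to 2.00 Mb, directly before H19, were unusable, so the flank holds no pair closer than 60 kb. Its bin at that distance met H19 at 0.763 (0.280 to 1.66, 6 contacts). The adjacent bin at 2.02 to 2.04 Mb held 17 contacts with H19, an O/E of 0.458 (0.267 to 0.734; 0.0204 without balancing), and 2.07% of 134927 pairs at that distance were lower. On the other side, among bins with 10 or more contacts, the highest were 1.76 to 1.78 Mb at 5.06 (2.61 to 8.83; 12 contacts; 0.183 without balancing), 1.86 to 1.88 Mb at 4.19 (2.80 to 6.01; 29 contacts; 0.287 without balancing) and 1.70 to 1.72 Mb at 4.07 (2.28 to 6.71; 15 contacts; 0.275 without balancing). The bins at 1.88 to 1.9 Mb and 1.64 to 1.66 Mb followed at 3.58 (27 contacts; 0.237 without balancing) and 3.25 (38 contacts; 0.823 without balancing). The partner with at least 50 contacts was 1.92 to 1.94 Mb, at 1.85 (1.42 to 2.37; 63 contacts; 0.394 without balancing). Going back from H19, the table lists LINC01219, MRPL23-AS1, MRPL23, TNNT3 and LINC01150.

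**Figure D4:**
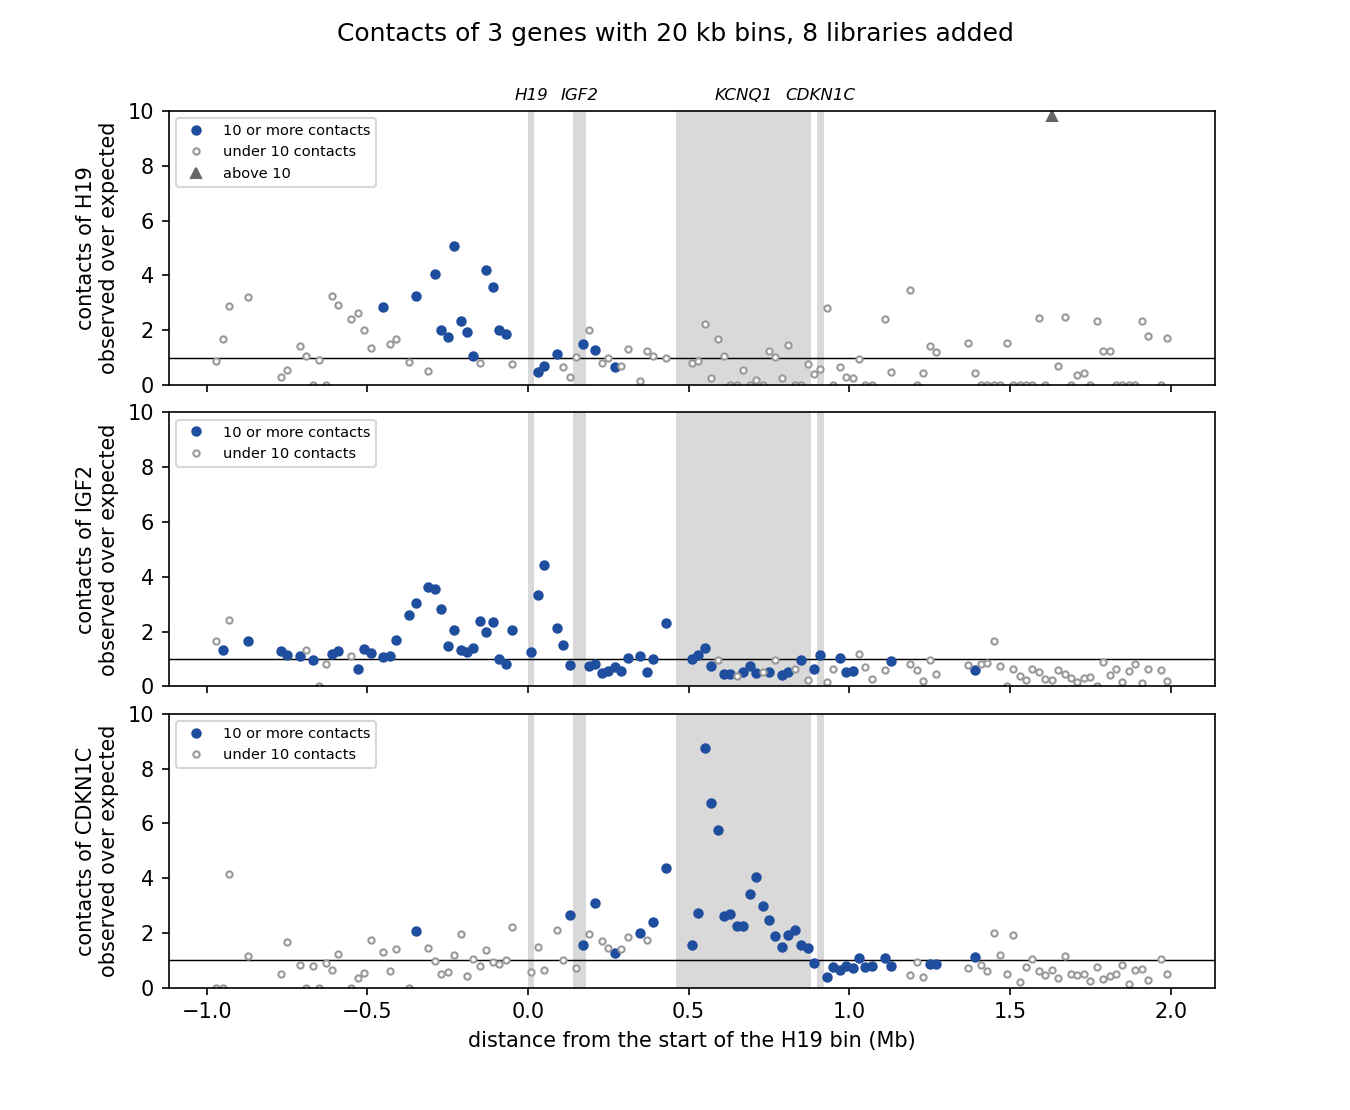
Balanced contacts over expected of H19, the IGF2 bins added, and CDKN1C with each bin of the window, against distance from the H19 bin in Mb, all libraries added; filled points have 10 or more contacts. Among the filled points H19 had its higher values before its own position and CDKN1C over KCNQ1 at 2.54 to 2.58 Mb. Those of IGF2 were at 2.04 to 2.06 Mb (4.42), 1.68 to 1.70 Mb (3.63), 1.70 to 1.72 Mb (3.55) and 2.02 to 2.04 Mb (3.32). The highest H19 point of all, 11.7 at 3.62 to 3.64 Mb, rests on 3 contacts.

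Pairs with enough contacts were tested for a change with digestion time. The pairs of H19 with IGF2, with 2.02 to 2.04 Mb and with the bins named before it other than 1.92 to 1.94 Mb, and of the first IGF2 bin with 2.04 to 2.06 Mb, had too few and were not tested. At 20 kb, 120 of the 253 pairs of usable member bins had enough contacts (a mean of 5), and 0 passed in any of the 3 comparisons, as for all 2497793 pairs (0%). At an unadjusted p under 0.05 limma gave 3 member pairs for 0.25 against 12 h, 1 for 3 against 12 h and 5 for 0.25 against 3 h, which is 2.5%, 0.833% and 4.17% of the member pairs tested. Over all pairs the shares were higher, at 5.47%, 2.77% and 6.44%. CDKN1C with KCNQ1 at 2.54 to 2.56 Mb gave 0.64 (SE 0.33) and the second IGF2 bin with 2.04 to 2.06 Mb 0.45 (SE 0.27) on a log2 scale for 0.25 against 12 h, both at an adjusted p of 0.895 by limma. Without replicate 1 of 0.25 h, 3 of 120 passed between 0.25 and 12 h and 4 of 120 between 0.25 and 3 h (1.94% and 1.92% of all pairs were lower at 0.25 h and 0.019% and 0.0287% higher). The library left at 0.25 h is the shallowest.

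At 100 kb the counts were larger. The bins that hold H19 (2 to 2.1 Mb) and IGF2 (2.1 to 2.2 Mb) met at 2.10 (libraries 1.74 to 2.28; 1551 contacts), above 99.8% of 27482 pairs at that distance. The H19 bin here also takes in the neighbours that met IGF2 often at 20 kb. KCNQ1 at 2.5 to 2.6 Mb met the bin that holds CDKN1C (2.9 to 3.00 Mb) at 3.09 (libraries 2.68 to 3.49, 1076 contacts). Of these contacts, 301 were with the 20 kb bin of CDKN1C and the rest with its neighbours. KCNQ1 at 2.5 to 2.6 Mb met its own part at 2.8 to 2.9 Mb at 2.29. Without balancing these O/E values were 0.438, 1.01 and 0.676, so the first and the last fell below 1. In the first run, with balancing, they were 2.49 (188 contacts; libraries 1.16 to 2.9), 3.52 (140 contacts; 2.32 to 4.91) and 2.81. The labels do not say whether both runs read the same libraries, so the first run may not be an independent repeat. Of the 21 pairs of member bins 0 passed for 0.25 against 12 h (0% of 716809 pairs; limma, lowest adjusted p among members 0.802), with 1 at an unadjusted p under 0.05, and 43341 of all pairs.

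Insulation scores give the log2 of the mean balanced signal in a square, over the mean of the chromosome. The square reaches 200 kb to each side of a bin, so low values mark boundaries that contacts cross less often. Distance within the square was not corrected for, so unusable bins near its corner can shift the score. In the window 9 boundaries were found (minima that stood out from their flanks by a prominence of 0.2 or more) out of 6030 in the genome. A boundary lay beside or in each gene. The 6030 boundaries stand against 134553 bins with a score in every library, and KCNQ1 spans 21 bins. How often other genes have a boundary as near was not tested. At 2.02 to 2.04 Mb, next to H19, the score was 0.11, higher than 96.7% of all boundaries, with a prominence of 0.56, above that of 3 others in the window (0.22 to 0.50). At 2.18 to 2.20 Mb, next to IGF2, it was -0.08, at the first usable bin of KCNQ1 -0.52, and at 2.92 to 2.94 Mb, next to CDKN1C, -0.58. The other 5 lay at 1.62, 3.36, 3.42, 3.68 and 3.84 Mb.

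The KCNQ1 boundary lies beside its 2 unusable bins. Its score was -0.28 and -0.40 at 0.25 h, -0.41 and -0.45 at 1 h, -0.77 and -0.41 at 3 h, then -0.59 and -0.65 at 12 h. The 0.25 and 12 h libraries did not overlap, but the difference of 0.28 (SE 0.10) did not pass (limma, adjusted p = 0.585). The boundary next to CDKN1C gave -0.56 and -0.54 at 0.25 h, -0.66 and -0.59 at 1 h, -0.75 and -0.32 at 3 h, then -0.55 and -0.63 at 12 h, and those of 0.25 and 12 h overlapped (difference 0.04; limma, adjusted p = 0.948). That beside H19 gave -0.37 and 0.18 at 0.25 h and 0.17 and 0.24 at 12 h, a difference of -0.31 (adjusted p = 0.644) in which 1 library of 0.25 h stood apart. Bins near the H19 boundary, such as 2.06 to 2.08 Mb, were unusable as well. The boundary beside H19 was not found with a square of 100 kb, nor the KCNQ1 boundary with 100 or 300 kb. Both were found when contacts were thinned to the same number off the diagonal within 3 Mb in each library.

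Inside the genes the score was highest within KCNQ1, at 0.94 at 2.74 to 2.76 Mb, and lowest at its first usable bin; CDKN1C was at -0.41 and H19 at 0.49. For 0.25 against 12 h 0 of 23 member bins passed, as did 0 of all 134553 (0%, limma). At an unadjusted p under 0.05 limma gave 9 members, and 10650 of the 134553. The members were 8 KCNQ1 bins with higher scores at 0.25 h and H19 with a lower one (-0.26, limma, adjusted p = 0.542). Squares of neighbouring bins overlap, so these KCNQ1 bins are not separate measurements. Without balancing all 23 member bins were lower at 0.25 h, with 26.4% of all bins lower and 18.2% higher, and 14 boundaries were found in the window.

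**Figure D5:**
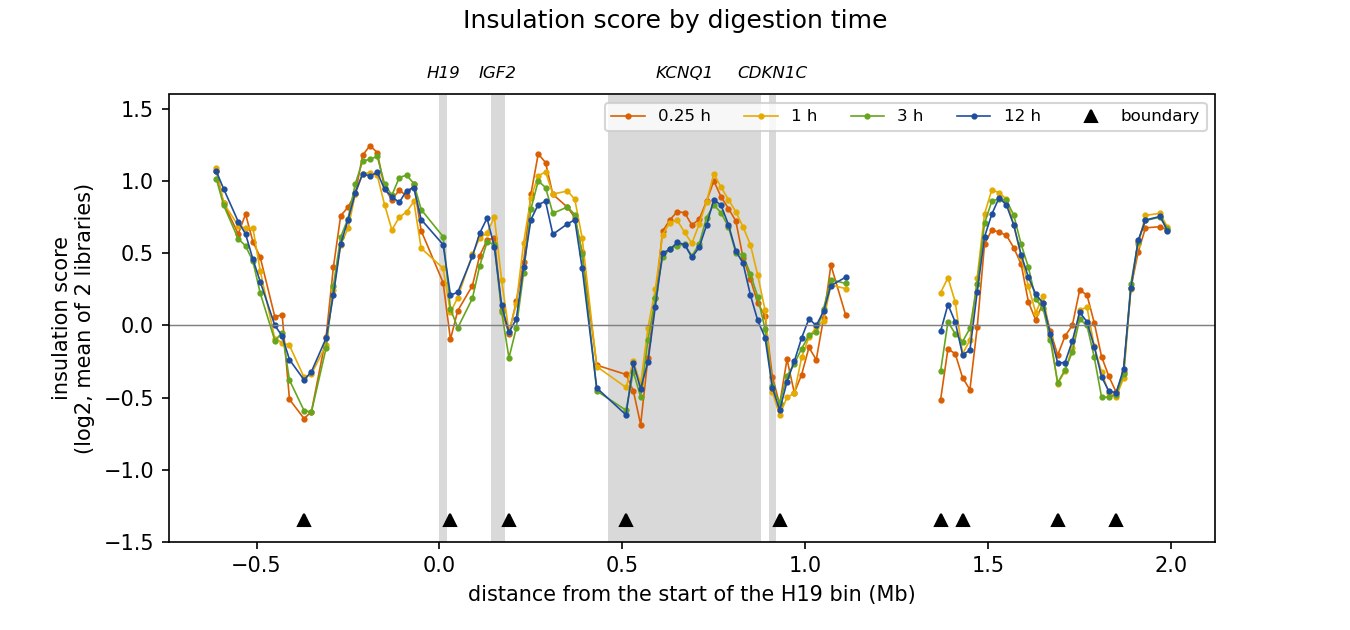
Insulation score along the window by digestion time, against distance from the H19 bin in Mb, with the 9 boundaries as triangles and the genes marked. The minima beside KCNQ1 and CDKN1C were deeper than those beside H19 and IGF2, and the lines of the 4 times ran close together over most of the window.

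The pattern of H19 over the 8 libraries was shared with other bins of the window. By Pearson's r of log2 CPM with the 99 usable bins outside the genes, H19 was most like 3.22 to 3.24 Mb (0.995), 1.82 to 1.84 Mb (0.993) and 1.54 to 1.56 Mb (0.988), with a median of 0.920. IGF2 was most like 2.34 to 2.36 Mb (0.989; median 0.903) and KCNQ1 most like 2.26 to 2.28 Mb (0.993; median 0.937). CDKN1C had lower values, the highest 0.780 with 2.08 to 2.10 Mb and a median of 0.525. These are descriptions over libraries that share depth and digestion time.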

How the data were processed

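The deposited values of both runs are a signal per pair of bins, made by the authors with HiC-Pro 2.11.1 and Bowtie2 2.3.4.1 on hg19, per the submitters' processing notes. Filters on reads and the balancing settings are not given in the sources used here. In each map the bin totals were nearly equal, which is what balancing produces. Since a balanced value is a whole number of contacts times a factor for each bin, whole contacts were recovered, and 100% of values in 16 maps came within 0.01 of a whole number. Contacts, self contacts and sums are these recovered contacts; O/E and insulation use the deposited signal.

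Tests used limma 3.58.1 in R 4.3.3 (lmFit and eBayes with trend) over all 8 libraries of the second run, with Benjamini-Hochberg adjustment over all features and a threshold of 0.05. Values were log2 CPM of contacts with other bins, log2 of self over other contacts with 0.5 added to each, log2 O/E with 0.1 added, and insulation; a bin needed signal in every library. The recovery, the insulation score and the limma test of contacts with other bins (0.25 against 12 h) were tried on simulated data. That test was simulated with far fewer changed bins than were called here. The tests of self contacts, pairs and insulation were not simulated. Members, gene lists and tests were chosen with earlier results of these data known. Bins named within KCNQ1 were its first, last, highest and lowest ones by change from 0.25 to 12 h, and partners those with the 3 highest O/E, at least 40 kb away and with 50 contacts; other bins were named after their values were seen. The alternatives were other scalings, filters, added counts, square sizes, no balancing, thinning, the first run, a replicate block and leaving out each library. Genes other than the members are named by their order in the RefSeq table of GRCh38.p14.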

Additional observations from a re-analysis of the deposited data

How the results depend on the processing

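Counts of member bins are given as a percentage of those tested. For contacts with other bins, 87.0% passed between 0.25 and 12 h (69.6% to 91.3% leaving out each library; 25.6% to 35.4% of all bins lower) and 69.6% between 3 and 12 h (52.2% to 82.6%; 11.1% to 28.7% of all bins lower); with contacts between chromosomes alone these were 39.1% and 0%. Between 0.25 and 3 h 4.35% passed (0% to 8.70%), and 0% with only the times compared, contacts within or between chromosomes alone, self contacts included, or 100 kb bins of either run. For self contacts 65.2% passed between 0.25 and 12 h (34.8% to 60.9%; 54.3% to 63.7% of all bins higher) and 39.1% between 3 and 12 h (17.4% to 56.5%; 38% to 62.6% of all bins higher; 71.4% in 100 kb bins of the second run, against 94.6% of all such bins, and 60% with a mean of at least 5 self contacts). Between 0.25 and 3 h 4.35% passed (0% to 26.1%), 0% with only the times compared, over contacts within 2 Mb, with the added count in proportion to depth or in the first run, 42.9% in 100 kb bins of the second run (3 of 7, 2 higher and 1 lower; 52.1% of all such bins) and 6.67% with a mean of at least 5 (13.1% of all such bins higher). Member pairs at 20 kb gave 0% to 2.5% between 0.25 and 12 h and 0% to 3.33% between 0.25 and 3 h over the libraries left out. Without balancing, insulation passed in 100% and 87.0% of member bins against 12 h for 0.25 and 3 h, all lower (for 3 h 15.6% of all bins were lower and 10.7% higher), and 14 boundaries were found. In that setting O/E was 0.0826 for H19 to KCNQ1, 0.358 for IGF2 to KCNQ1, 0.323 for IGF2 to CDKN1C, 0.563 for KCNQ1 to CDKN1C, 0.505 inside KCNQ1 and 0.294 inside IGF2. Signs turned for the KCNQ1 bin at 2.78 to 2.80 Mb with self contacts included (0.13) and for CDKN1C over the libraries left out (-0.32 to 0.0061, the latter without replicate 2 of 0.25 h). The cause of these shifts was not tested. The other 215 values for whole comparisons stayed within their limits, and 241 for single bins kept direction and call. The call was lost for the second IGF2 bin (-0.26) and the last KCNQ1 bin (-0.16) with contacts between chromosomes alone, and in 4 settings for self contacts of the KCNQ1 bin at 2.82 to 2.84 Mb, which has none. It was gained for CDKN1C without replicate 1 of 0.25 h or with self contacts included (-0.26), and for the KCNQ1 bin at 2.78 to 2.80 Mb without replicate 2 of 0.25 h (-0.19).

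Replicate numbers are shared by the times, but no label ties them to a culture or day. Deviations of same-numbered libraries correlated at 0.11 to 0.254 for contacts with other bins and at 0.0171 to 0.129 for self contacts. With a replicate block 87.0% of members still passed between 0.25 and 12 h for contacts, 19 of 23 rather than 16 passed between 3 and 12 h, CDKN1C among them (limma, adjusted p = 0.0276), and 14 rather than 15 for self contacts. The settings with a mean of at least 5 self contacts and with an added count in proportion to depth were chosen after seeing the data.

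Pairs of H19 with IGF2 or CDKN1C, and of IGF2 with CDKN1C, rest on 1 to 30 contacts in all libraries, and 2 libraries per time limit every test.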
